A study of Mus musculus with 5 samples.

Results

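The 9 genes described here are products of megakaryocytes and platelets: the platelet chemokines Pf4 and Ppbp, the integrin subunits Itga2b and Itgb3, the glycoprotein chains Gp1bb, Gp5 and Gp9, the collagen receptor Gp6 and the granule membrane receptor Treml1. They were taken by gene symbol from the count table of every library, and all 9 were among the 36401 genes listed. Liver RNA from lobe 1 had been sequenced in BALB/C mice killed on day 10 of life. The groups were Mdr2+/+ pups (wild-type, 2 libraries) and Mdr2+/- pups (heterozygous, 3 libraries). Both came from a line in which Mdr2-/- animals had been backcrossed to BALB/c, and both were kept as littermates. Mdr2 is the older name of Abcb4, the hepatocyte transporter that puts phosphatidylcholine into bile, and the title of the series ties reduced ABCB4 to the inflammatory form of biliary atresia, in which the bile ducts of newborns scar. The labels number the libraries within a genotype without stating that each is a separate animal, so p-values measure only the spread between these libraries.

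Megakaryocytes are the large cells that shed platelets. They form in the fetal liver and later in the bone marrow, and the newborn liver still holds blood-forming cells for a time. Platelets have no nucleus and carry RNA inherited from the megakaryocyte, so platelets in the blood of a liver piece and resident megakaryocytes add to the same transcripts. On the platelet surface, the GPIb-IX-V complex catches von Willebrand factor, Gp6 binds collagen, and the integrin of Itga2b and Itgb3 binds fibrinogen to tie platelets together. Pf4 and Ppbp are released from alpha granules on activation. In bulk tissue, fewer cells of a type and less RNA per cell cannot be told apart.

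Pf4 and Ppbp are the most abundant of these transcripts per length and lie next to each other on chromosome 5 (mm10), with 2371 bases and 0 annotated genes between them, inside a cluster of CXC chemokine genes. For this neighbouring pair, the 150 bases before each start are shown. The same stretch is shown for Gp5 and Gp9, which encode chains of a single receptor complex. Capitals mark the words searched for: AGATAA or TGATAA, which GATA factors bind, and AGGAAG or CGGAAG, which ETS factors bind, on either strand. The windows come from RefSeq on GRCm38.p6 and are written 5′ to 3′ on the strand of the gene.
Ppbp: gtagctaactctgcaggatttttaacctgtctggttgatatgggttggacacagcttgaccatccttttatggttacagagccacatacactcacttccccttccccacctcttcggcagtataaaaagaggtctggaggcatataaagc
Pf4: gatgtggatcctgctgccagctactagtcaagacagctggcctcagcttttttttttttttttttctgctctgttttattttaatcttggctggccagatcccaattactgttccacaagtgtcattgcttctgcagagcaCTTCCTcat
Gp5: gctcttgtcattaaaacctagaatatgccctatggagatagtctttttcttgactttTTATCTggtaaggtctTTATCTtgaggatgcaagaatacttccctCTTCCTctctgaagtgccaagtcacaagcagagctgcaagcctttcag
Gp9: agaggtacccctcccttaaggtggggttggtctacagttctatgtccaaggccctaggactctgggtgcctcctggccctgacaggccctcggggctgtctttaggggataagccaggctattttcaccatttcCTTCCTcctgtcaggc
They span chr5:90768368-90768517 for Ppbp (plus strand), chr5:90772285-90772434 for Pf4 (plus), chr16:30310782-30310931 for Gp5 (minus) and chr6:87777920-87778069 for Gp9 (plus). Ppbp holds neither word family, Pf4 and Gp9 each hold 1 ETS word, and Gp5 holds 2 GATA words and 1 ETS word. RefSeq windows were matched for 8 of the 9 genes, Itgb3 being the exception. Over the 250 bases before the start, an ETS word was found in 5 of these 8 and in 39.2% of 32851 windows in the table. A GATA word was found in 2 of the 8 (Gp5 and Gp6) and in 16.6% of all windows. Gp5 was the only gene of the 8 with words of both families, and its marked words do not overlap. A match describes the sequence and is not a measured binding site.

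Library totals ranged from 11944157 to 17312851 estimated counts. Levels are given as normalised CPM, the count scaled to library size with TMM factors. The log2FC, or log2 fold change, is positive where heterozygous livers were higher. It comes with its standard error (SE) and a p-value adjusted over the 13959 tested genes in edgeR's quasi-likelihood test. A gene passed at an adjusted p under 0.05. Abcb4 stood at 162 CPM in both wild-type libraries and at 101, 97.7 and 92.6 CPM in the heterozygous ones, so the libraries followed their labels. Hepatocyte markers (Alb, Ttr, Apoa1, Apob, Serpina1c, Cps1, Fgb and Ahsg) were present in every library, with a summed level from 205202 to 232585 CPM.

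Of the 9 genes, 1 passed as higher in heterozygous livers (Itgb3) and 0 as lower. Of all tested genes, 6.63% passed as higher and 5.41% as lower, so 1 of 9 (11.1%) is near the background. At an unadjusted p under 0.05, 4 were higher and 0 lower, where 28.2% of all tested genes reached that level (14.8% higher and 13.4% lower). DESeq2 also called 1 higher and 0 lower, against 5.32% and 4.29% of the 12604 genes to which it gave an adjusted p. Groups did not overlap for 4 of the 9, all higher in heterozygous livers (Itgb3, Ppbp, Gp5 and Gp6), a share of 44.4%. Of all tested genes, 45.5% had groups apart, 22.9% with heterozygous livers higher and 22.7% lower. The median log2FC over the 9 was 0.52, against -0.0025 over all tested genes. Gp6 passed the filter on low counts only through its heterozygous libraries, and the median over the other 8 was 0.41. Gp6 is also 1 of the 4 at an unadjusted p under 0.05 and 1 of the 4 with groups apart. Both counts therefore depend in part on that filter.

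Itgb3 encodes integrin beta 3, which pairs with Itga2b on platelets and with Itgav on endothelial cells, macrophages and other cells. It lies on chromosome 11 (104608000 to 104670476, plus strand, mm10). Its level was 13.9 and 11.4 CPM in wild-type replicates 1 and 2, and 20.7, 25.1 and 19.1 CPM in heterozygous replicates 1, 2 and 3. All 3 heterozygous libraries lay above both wild-type libraries. The log2FC was 0.77 (SE 0.14, adjusted p = 0.00904), a 1.70-fold rise with a 95% interval of 1.37 to 2.11. Itgb3 did not pass without wild-type replicate 2 (log2FC 0.65, adjusted p = 0.0586), and over 11 alternative fits its adjusted p ran from 2.2e-05 to 0.0586.

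Itga2b encodes integrin alpha IIb, the platelet partner of beta 3 and an early marker of the lineage (chromosome 11, 102453297 to 102470122, minus strand). It stood at 11.8 CPM and 6.14 CPM in the wild-type pair and at 9.50, 14.0 and 9.89 CPM in the heterozygous libraries. The groups overlapped, with wild-type replicate 1 above heterozygous replicates 1 and 3. Its log2FC of 0.29 did not pass (adjusted p = 0.496, 95% interval -0.27 to 0.85). The Itgb3 to Itga2b ratio of counts was 1.18 and 1.86 for the wild-type libraries against 2.18, 1.80 and 1.94 for the heterozygous ones. Its groups overlapped because wild-type replicate 2 had a ratio above that of heterozygous replicate 2. Itgav, the other partner of Itgb3, lay between 32.3 and 35.3 CPM in all 5 libraries (log2FC 0.08, adjusted p = 0.466).

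Ppbp encodes pro-platelet basic protein, the precursor of a neutrophil-attracting chemokine (chromosome 5, 90768518 to 90770063, plus strand). Its level was 18.2 and 10.9 CPM in wild-type and 21.3, 28.8 and 21.3 CPM in heterozygous libraries. Every heterozygous library was above both wild-type libraries, and wild-type replicate 2 was lowest. The log2FC was 0.69 (SE 0.20) and did not pass (adjusted p = 0.0550, 95% interval 0.24 to 1.15). Ppbp passed without wild-type replicate 1 (log2FC 1.13, adjusted p = 0.0239), with no filter on low counts (7.8e-04) and with an offset for transcript length (0.0363). Over the 11 alternatives its adjusted p reached 0.233, in the fit without wild-type replicate 2.

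Pf4 encodes platelet factor 4, a heparin-binding chemokine (chromosome 5, 90772435 to 90773383, plus strand). It was measured at 13.3 and 9.08 CPM in wild-type and at 12.2, 12.9 and 12.4 CPM in heterozygous libraries. The heterozygous values lay between those of the 2 wild-type libraries, with a coefficient of variation of 2.88% among themselves, the lowest of the 9 genes. Its log2FC was 0.14 (adjusted p = 0.577, 95% interval -0.19 to 0.47). The Ppbp to Pf4 ratio of counts was 1.37 and 1.19 for the wild-type libraries against 1.75, 2.24 and 1.72 for the heterozygous ones, without overlap. An exact two-sided permutation test over the libraries gave p = 0.2 for this ratio, the smallest p that 2 against 3 libraries allow in that test, and p = 0.4 for the Itgb3 to Itga2b ratio. Adjusted over these 2 ratios, both exact p-values were 0.4. The other CXC genes of the cluster were low: Cxcl1 ran from 1.76 to 2.44 CPM with overlapping groups (log2FC 0.03, adjusted p = 0.953). The 4 others (Cxcl2, Cxcl3, Cxcl5 and Cxcl15) were too low to test, and Cxcl3 had 0 counts in every library.

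**Figure D1:**
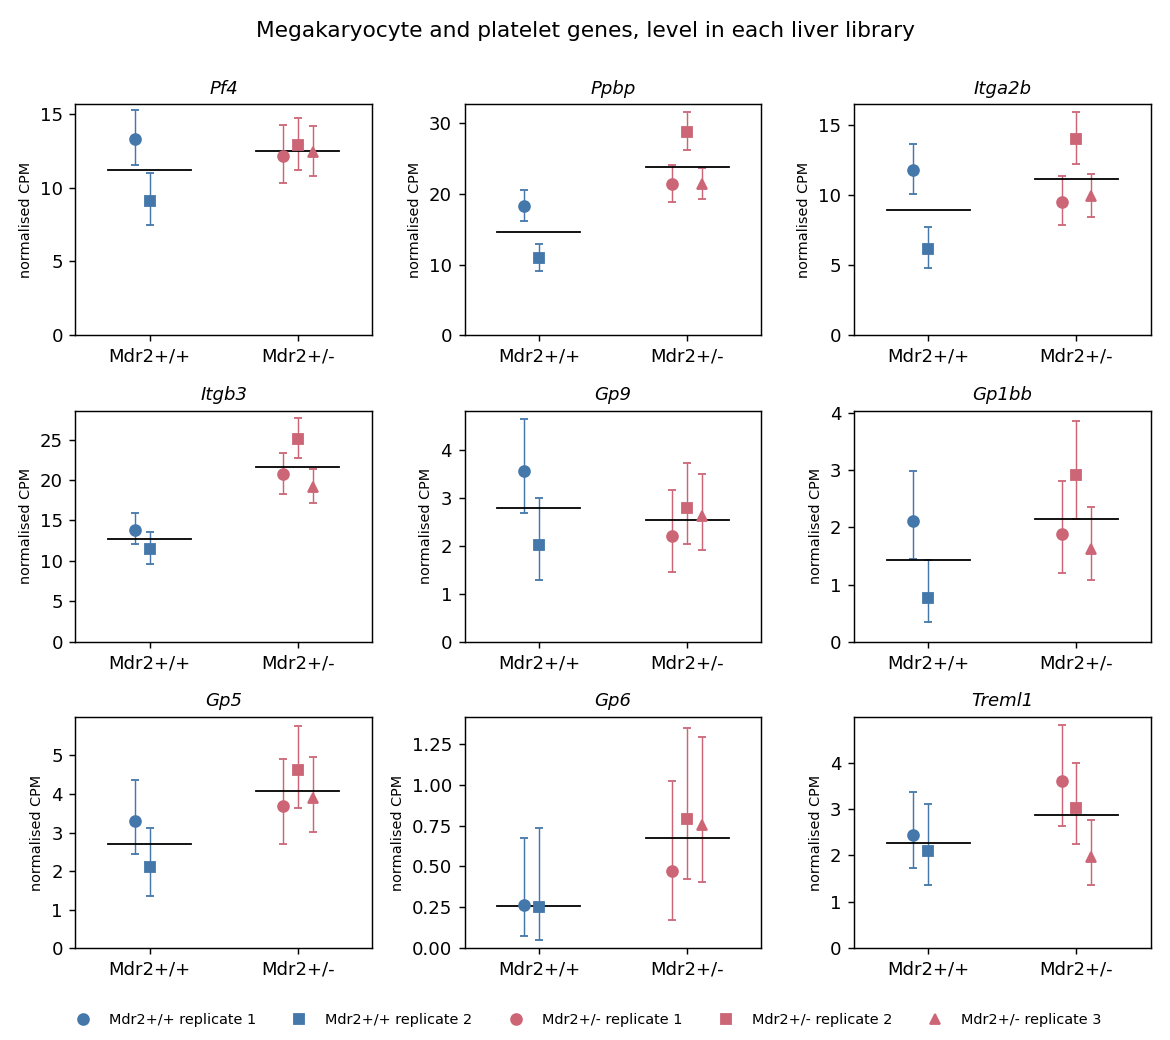
Normalised CPM (vertical axis, from 0, a scale for each gene) of the 9 genes in wild-type (blue) and heterozygous (red) libraries. Points are libraries, bars are exact 95% Poisson intervals that cover counting error only, and black lines are group means. Itgb3, Ppbp, Gp5 and Gp6 have every heterozygous point above both wild-type points, and the groups of the other 5 overlap.

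The GPIb-IX-V complex was represented by 3 of the 9 genes. Gp9, a small chain needed for the complex to reach the surface (chromosome 6, 87778072 to 87779768, plus strand), stood at 3.57 and 2.02 CPM in wild-type and at 2.20, 2.79 and 2.62 CPM in heterozygous libraries. It had the lowest log2FC of the 9 (-0.16, adjusted p = 0.739, 95% interval -0.74 to 0.43). Gp5, the chain that thrombin cleaves (chromosome 16, 30307685 to 30310779, minus strand), stood at 3.30 and 2.10 CPM in wild-type and at 3.69, 4.61 and 3.90 CPM in heterozygous libraries. Its groups did not overlap, but the log2FC of 0.57 did not pass (adjusted p = 0.141, 95% interval 0.05 to 1.08).

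Gp1bb encodes the beta chain of GPIb, linked to the ligand-binding alpha chain (chromosome 16, 18620317 to 18622403, minus strand). It was measured at 2.11 and 0.757 CPM in wild-type and at 1.88, 2.91 and 1.63 CPM in heterozygous libraries, with overlapping groups (log2FC 0.52, adjusted p = 0.443, 95% interval -0.38 to 1.42). Wild-type replicate 2 had 9 rounded counts. Gp1bb shares 1902 of its 2087 exonic bases with Sept5 on the same strand, and its deposited counts are fractions, so the division of reads between these genes is uncertain. Sept5 itself ran from 1.57 to 2.51 CPM (log2FC -0.33, adjusted p = 0.450). The alpha chain Gp1ba, named after its values were seen, was at 2.77 and 2.19 CPM in wild-type and 3.22, 3.22 and 3.84 CPM in heterozygous libraries, without overlap and without passing (log2FC 0.46, adjusted p = 0.189).

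Gp6 encodes the collagen receptor of platelets, which signals through the Fc receptor gamma chain (chromosome 7, 4363965 to 4397744, minus strand). It had 4 and 3 rounded counts in the wild-type libraries against 6, 13 and 13 in the heterozygous ones, or 0.264 and 0.252 CPM against 0.471, 0.789 and 0.756 CPM. The heterozygous values were all higher, but the counting intervals of heterozygous replicates 1 (0.173 to 1.03 CPM), 2 (0.420 to 1.35 CPM) and 3 (0.403 to 1.29 CPM) each overlap that of each wild-type library (0.0720 to 0.676 and 0.0520 to 0.737 CPM). The log2FC of 1.38 was the largest of the 9 and did not pass (adjusted p = 0.0798, 95% interval 0.36 to 2.40). Fcer1g, its signalling partner and also a gene of myeloid cells, was lower in the heterozygous libraries (12.8 to 13.8 CPM against 18.1 and 15.2 CPM) and did not pass (log2FC -0.34, adjusted p = 0.0684). Treml1, a receptor stored in alpha granules (chromosome 17, 48359916 to 48367176, plus strand), was at 2.44 and 2.10 CPM in wild-type and 3.61, 3.03 and 1.98 CPM in heterozygous libraries. Heterozygous replicate 3 was the lowest of the 5, and the log2FC of 0.30 did not pass (adjusted p = 0.520, 95% interval -0.32 to 0.93).

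Levels of different genes were compared per kilobase of the longest annotated transcript. In heterozygous livers (n = 3) Ppbp (22.0 ± 3.96 CPM per kb, SD) and Pf4 (21.2 ± 0.610) were highest and did not differ beyond their spread. Itgb3 (3.74 ± 0.537), Itga2b (3.23 ± 0.719), Gp9 (2.88 ± 0.347), Treml1 (2.33 ± 0.671) and Gp5 (1.85 ± 0.221) followed, each within 1 SD of its neighbour in this order, taking the larger SD. Gp1bb (1.03 ± 0.326) lay below Gp5 without overlap, and Gp6 (0.114 ± 0.0297) was far below all the others. In wild-type livers (n = 2) Pf4 (19.0 ± 5.04 CPM per kb) and Ppbp (13.4 ± 4.82) again led, and Itgb3 (2.19 ± 0.297) came after Gp9 (3.17 ± 1.24) and Itga2b (2.60 ± 1.16). Together Pf4 and Ppbp made 43.9 to 45.8% of the summed CPM of the 9 genes in every library.

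The 2 wild-type libraries stood apart from each other. All 9 genes were lower in wild-type replicate 2 than in replicate 1, at 0.358 of its level for Gp1bb up to 0.955 for Gp6. Wild-type replicate 2 was the lowest library for 8 of the 9, Treml1 being the exception, and heterozygous replicate 2 the highest for 6. The summed level was 68.8 and 44.8 CPM in wild-type and 75.6, 94.9 and 73.6 CPM in heterozygous libraries. Heterozygous libraries all lay above wild-type replicate 2 for 8 genes, but all above wild-type replicate 1 for 4.

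**Figure D2:**
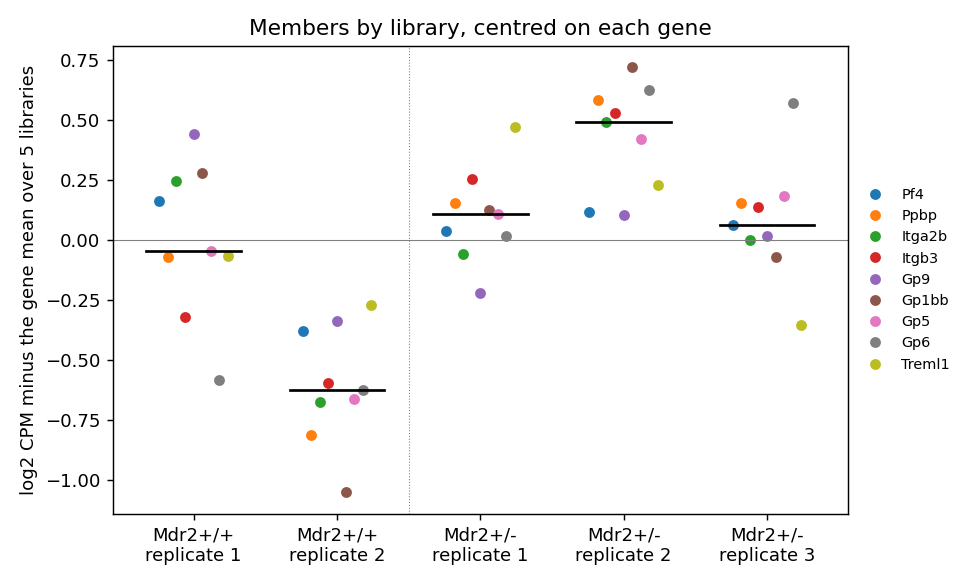
Log2 CPM of each gene minus its own mean over the 5 libraries (vertical axis), by library (horizontal axis), with a colour for each gene and black lines for the median of the 9. The median is -0.63 in wild-type replicate 2 and 0.49 in heterozygous replicate 2, and lies between -0.05 and 0.11 in the other 3 libraries.

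The median over the 9 genes moved with the library left out. This median log2FC of 0.52 became 0.92 when wild-type replicate 1 was dropped and 0.21 when wild-type replicate 2 was dropped. It was 0.23 when heterozygous replicate 2 was dropped, a fit in which Gp6 could not be tested. That value is a median over the other 8 genes, for which the median with no library dropped was 0.41. Without wild-type replicate 2 the log2FC turned to -0.086 for Pf4 and -0.071 for Itga2b, and in the absence of wild-type replicate 1 it turned to 0.33 for Gp9. These 3 values did not pass. Itgb3 kept a log2FC between 0.64 and 0.92 in the 11 alternatives.

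**Figure D3:**
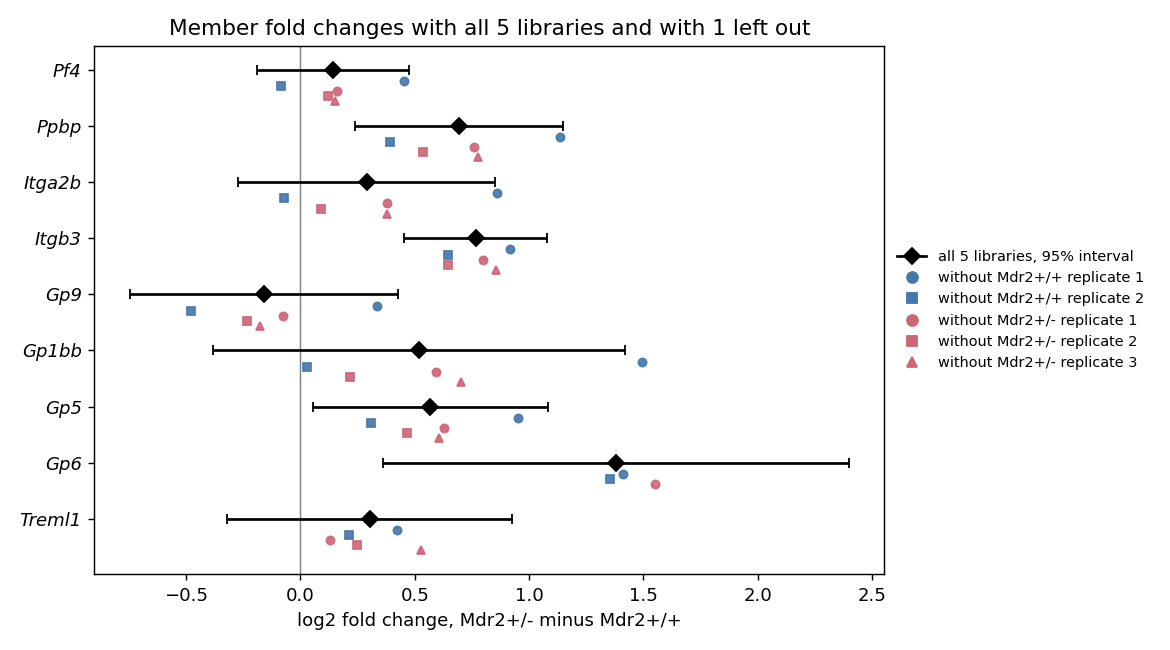
Log2 fold change of each gene (horizontal axis, heterozygous minus wild-type). Black diamonds with 95% intervals use all 5 libraries, and coloured points each leave out the library named. The points without wild-type replicate 1 lie to the right of the diamond for every gene and those without wild-type replicate 2 to the left; Gp6 could not be tested without heterozygous replicate 2 or 3.

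The rest of the lineage was described with 6 lists holding 69 genes, of which 62 were tested, 2 rose and 4 fell (median log2FC 0.08). Of all tested genes, 6.63% rose and 5.41% fell, so neither count stands out from the background. Among other surface receptors, 0 of 15 rose and 1 fell (median 0.08). The gene that fell was Cd9, a tetraspanin of platelets and many other cells, at 56.5 and 56.4 CPM in wild-type and 37.8, 44.7 and 39.2 CPM in heterozygous libraries (log2FC -0.47, adjusted p = 0.00657). Cd9 passed in all 11 alternatives. Among granule contents, 1 of 14 rose and 0 fell (median 0.28), and 4 had an unadjusted p under 0.05, all of them higher. Of all tested genes, 14.8% were higher at that level, and 28.2% reached it in either direction. However, 1 of these 4 granule genes passed the filter on low counts only with the heterozygous libraries, where it was higher. The count of 4 therefore depends in part on that filter.

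Thbs1, the granule glycoprotein thrombospondin, was at 19.1 and 14.6 CPM in wild-type and 24.8, 26.3 and 24.4 CPM in heterozygous libraries. The groups were apart and Thbs1 rose (log2FC 0.57, SE 0.11, adjusted p = 0.0139), though it did not pass without wild-type replicate 2 (0.0614). Other cell types also make Thbs1.

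Of 15 genes for signalling, cytoskeleton and enzymes, 1 rose and 1 fell (median 0.08), near the background of 6.63% and 5.41% of all tested genes. Plek, the kinase C substrate pleckstrin of platelets and leukocytes, rose from 13.4 and 10.1 CPM to 17.6, 17.4 and 16.8 CPM (log2FC 0.54, adjusted p = 0.0221). It did not pass without wild-type replicate 2 (0.0962) or heterozygous replicate 2 (0.0638). Gng11, a G protein gamma subunit, fell (17.6 and 18.8 CPM to 12.2, 14.6 and 14.7 CPM, log2FC -0.39, adjusted p = 0.0473) and passed in 4 of 11 alternatives, in none that left out a library. Tubb1, the beta tubulin of the platelet marginal band, was at 3.30 and 2.44 CPM in wild-type and 3.85, 4.92 and 3.78 CPM in heterozygous libraries and did not pass (log2FC 0.53, adjusted p = 0.148).

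Of 12 transcription factors of the lineage, 0 rose and 2 fell (median -0.05), against 6.63% and 5.41% of all tested genes. Both genes that fell also act in red cell precursors. Tal1 stood at 15.9 and 13.5 CPM in wild-type and 10.0, 9.59 and 9.77 CPM in heterozygous libraries (log2FC -0.59, adjusted p = 0.00958), and did not pass without wild-type replicate 1 (0.0744). Gfi1b went from 4.89 and 3.70 CPM to 2.20, 2.19 and 2.97 CPM (log2FC -0.81, adjusted p = 0.0427) and passed in 5 of 11 alternatives. Dropping wild-type replicate 1 (log2FC -0.59, adjusted p = 0.265) or 2 (0.0575), or heterozygous replicate 1 (0.0945) or 2 (0.125), ended its call. Gata1, which drives both lineages and was named after its values were seen, did not pass (log2FC -0.64, adjusted p = 0.0968). Neither did Fli1, an ETS factor of megakaryocytes named in the same way (log2FC 0.27, adjusted p = 0.439).

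The thrombopoietin axis had 0 of 5 genes passing in either direction, 0 also at an unadjusted p under 0.05 and 0 in DESeq2, and 1 (Asgr2) called higher with the length offset. Thpo, the liver-made hormone that drives platelet production, was at 15.0 and 15.6 CPM in wild-type and 13.7, 14.3 and 14.1 CPM in heterozygous libraries (log2FC -0.12, adjusted p = 0.431). All 3 heterozygous values lay below both wild-type values. Asgr2, a chain of the hepatocyte receptor that clears aged platelets, was at 149 and 152 CPM against 163, 162 and 165 CPM (log2FC 0.12, adjusted p = 0.205).

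Markers of other blood cells changed in both directions, where 6.63% of all tested genes rose and 5.41% fell. Neutrophil and granulocyte progenitor markers rose in 10 of 10 cases (Mpo, Elane, Prtn3, Ctsg, Ltf, Ngp, Camp, S100a8, S100a9 and Mmp8), with a median log2FC of 1.51, and 8 to 10 of them passed with a library left out. Their summed level was 111 to 162 CPM in wild-type and 358 to 457 CPM in heterozygous libraries. Erythroid markers fell in 13 of 15 cases and 0 rose (median -0.78), and 10 to 13 passed with a library left out. Their summed level was 5957 to 7194 CPM in wild-type and 3467 to 4016 CPM in heterozygous libraries. Among those that fell were Hba-a1, Hba-a2, Hbb-bs, Hbb-bt, Slc4a1, Epb42, Sptb, Klf1, Hemgn, Ermap and Rhag. All 10 neutrophil markers were lowest in wild-type replicate 2, as were 8 of the 9 platelet genes. With groups apart for all 10 neutrophil markers, their lowest library had to be a wild-type one. Summed levels of erythroid, Kupffer cell and mast cell markers were also lower in wild-type replicate 2 than in replicate 1. Those of endothelial, stem and progenitor, and hepatocyte markers were higher. The part of the neutrophil and erythroid shifts between genotypes in the platelet gene values was not tested.

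Cells that can also make Itgb3 or Thbs1 were looked at through their markers. For comparison, 6.63% of all tested genes rose and 5.41% fell. Of 14 endothelial markers, 0 rose and 2 fell (Clec4g, log2FC -0.40, and Fcgr2b, log2FC -0.37), with a median of 0.08 and a summed level of 512 to 523 CPM in wild-type and 504 to 536 CPM in heterozygous libraries. The 2 endothelial calls were lost with wild-type replicate 2 left out (Clec4g, adjusted p = 0.0556, and Fcgr2b, 0.128), and that of Fcgr2b also with heterozygous replicate 1 (0.0542) or 2 (0.0776) left out. With no filter on low counts 1 endothelial marker, Lyve1, was called higher, and with the length offset 3 were called lower. Of 7 Kupffer cell markers, 0 rose and 2 fell (Cd163, log2FC -0.58, and Marco, log2FC -1.03), with 243 to 371 CPM in wild-type and 259 to 308 CPM in heterozygous libraries. Both Kupffer cell calls were lost when wild-type replicate 1 was left out (Cd163, log2FC -0.37, adjusted p = 0.175, and Marco, -0.37, 0.0956) or heterozygous replicate 2 (0.0701 and 0.0740) or 3 (0.0736 and 0.0581), and that of Marco also when heterozygous replicate 1 was (0.0511) and in DESeq2 (0.0977). Adgre1 (log2FC 0.51, adjusted p = 0.0683) was called higher with no filter on low counts (0.00615), with the replicate block (0.0144) and without heterozygous replicate 3 (0.0255), and Cd5l was without wild-type replicate 1. Stem and progenitor markers had 0 of 6 passing, 0 also at an unadjusted p under 0.05 and 0 in DESeq2 (Hlf, log2FC -0.14, Mecom, -0.29, and Procr, -0.43). Mast cell and basophil markers had 0 of 3 tested passing, and DESeq2 also called 0. At an unadjusted p under 0.05, 2 of them were higher (14.8% of all tested genes). Wild-type replicate 2 held 5, 4 and 6 counts of Cpa3, Mcpt4 and Cma1. These 3 thus passed the filter on low counts only with the heterozygous libraries, where they were higher. The count at an unadjusted p cannot be read apart from that filter. With no filter on low counts, with the replicate block or without heterozygous replicate 3, Cpa3 was called higher. Cpa3 (log2FC 1.36, adjusted p = 0.0806), Cma1 (0.89, 0.157) and Mcpt4 (0.66, 0.360) were all low, and the list summed to 1.60 to 2.64 CPM in wild-type and 4.30 to 5.34 CPM in heterozygous libraries. No marker of these 6 lists was at 0 in every library.

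**Figure D4:**
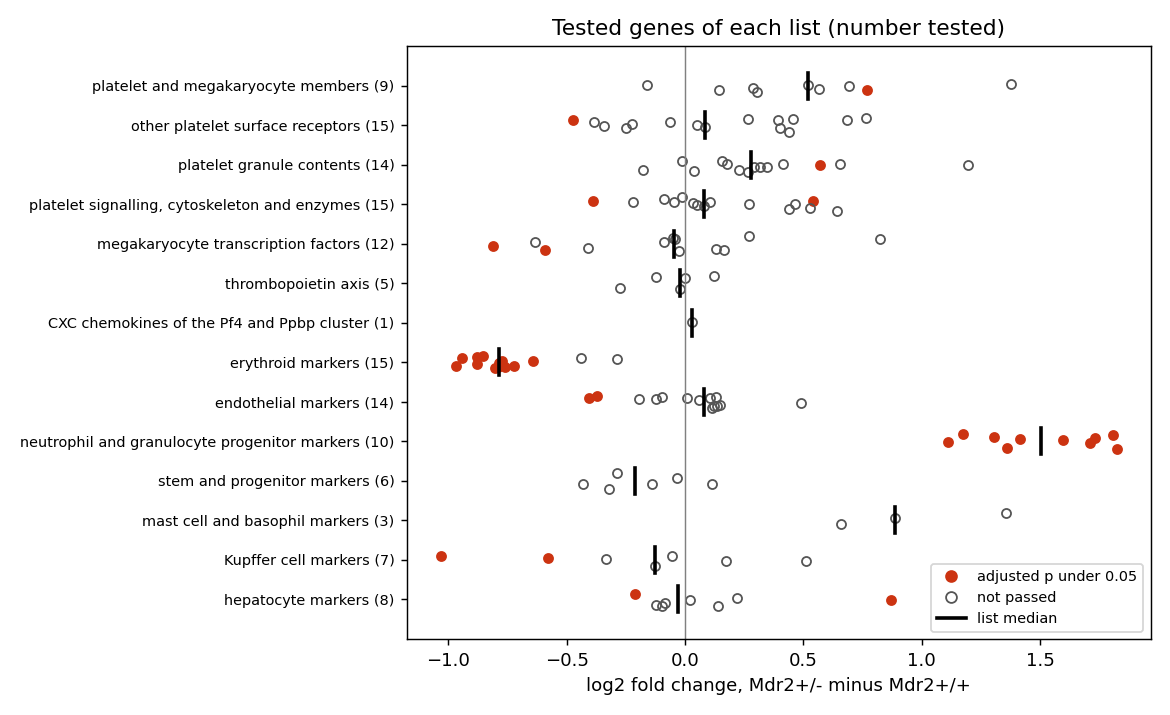
Log2 fold change (horizontal axis, heterozygous minus wild-type) of every tested gene in each list, with the number tested in brackets. Filled red points passed at an adjusted p under 0.05, open points did not, and black lines are list medians. The 9 platelet genes have a median of 0.52 with 1 red point, neutrophil markers 1.51 and erythroid markers -0.78.

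Genes whose profile over the 5 libraries was most like the median profile of the 9 were found by the root mean square distance of centred log2 CPM. The nearest was Scube1 (distance 0.03), at 1.32 and 0.841 CPM in wild-type and 1.57, 1.94 and 1.45 CPM in heterozygous libraries. Tubb1 (0.06), Hipk2 (0.06), Gpatch3 (0.08) and Srcap (0.08) came next. Of these 5, 0 passed the edgeR test (adjusted p from 0.0812 to 0.294). Among the 9 genes themselves, the distance from this median ran from 0.06 for Gp5 and 0.10 for Ppbp to 0.34 for Gp6 and Gp9.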

How the data were processed

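Total RNA of snap-frozen liver lobe 1 was made into TruSeq libraries for a HiSeq instrument, per the labels' protocols. TopHat and the build mm10 are named in the submitters' processing notes; for the counting tool, annotation and strand setting, the sources used here give nothing. Each deposited file holds the authors' estimated counts for a library, by Ensembl gene and with no scaling; 33.9 to 37.3% of values above 0 were whole numbers (tolerance 1e-06), so reads shared by overlapping genes are uncertain.

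Counts were rounded, filtered by filterByExpr (minimum count 10), scaled by TMM and tested in edgeR 4.0.16 (R 4.3.3) by the quasi-likelihood test with no covariate, with Benjamini-Hochberg adjustment over 13959 genes. The procedure was tested on simulated data, drawn as independent libraries with the spread fitted to these counts. Such data cannot show how it handles a library that stands apart from its group, or a gene with as few counts as Gp6. A floor of 3 counts was 0.174 to 0.252 normalised CPM, covering counting error only. Positions and lengths came from GENCODE M21 on the same build (87.3% of identifiers matched). Ahsp matched no row. Alternatives were DESeq2 1.42.0, other filters, scalings, a length offset, the replicate block and each library left out. The genes and lists were chosen with earlier results of these data known. Named are the 9 genes, genes of the lists that passed or otherwise up to 3 of smallest p, and the 5 nearest profiles; values of 3 list genes are not reported here.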

Additional observations from a re-analysis of the deposited data

How the results depend on the processing

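The 9 genes had 1 called higher and 0 lower with all 5 libraries; 2 were called higher with no filter on low counts and 2 with the length offset (Itgb3 and Ppbp in both), and 0 to 2 when a library was left out. Their median log2FC, 0.52, ran from 0.21 to 0.92 when a library was left out. Without heterozygous replicate 2 or 3 it covered 8 genes, as Gp6 could not be tested. The sign reversed for Pf4 (range -0.086 to 0.45) and Itga2b (-0.071 to 0.86), both in the absence of wild-type replicate 2. For Gp9 (-0.48 to 0.33) it reversed in the absence of wild-type replicate 1. In the 6 other platelet lists, 2 genes higher became 1 to 6 and 4 lower became 1 to 3 when a library was left out, and 2 were lower in DESeq2 and 2 with the length offset. Over all genes, 925 higher and 755 lower became 345 to 670 and 352 to 504 when a library was left out, and 704 higher and 936 lower by library size alone; the cause was not tested. A wild-type library alone in its group was assumed to vary like the heterozygous ones. With the replicate number as a block, 1 of the 9 genes was higher and 0 lower, with 730 and 547 of all genes. The deviations of same-numbered libraries correlated at 0.03 for number 1 and 0.03 for number 2. With 2 wild-type libraries, their deviations mirror each other, so these 2 values are not independent. Whether same-numbered libraries share more than a number cannot be told from them. DESeq2 gave Gp6 no adjusted p. Depth limits Gp6, with 7 counts over the wild-type libraries.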
